A study of Mus musculus with 16 samples.

Results

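The kinesin family was read from every non-control probe whose gene name on the array begins with Kif or Kifc and a digit, and each gene was represented by its brightest probe. This gave 43 genes of the 22339 genes named on the array. By the known roles of their proteins, 15 were counted as mitotic kinesins, 15 as transport kinesins and 13 as other kinesins. Kinesins are motor proteins that use ATP to move along microtubules or to take microtubules apart. Mitotic kinesins build the spindle, move chromosomes and shape the midzone where a dividing cell is cut apart, and their mRNAs are typically high in cycling cells and low in resting ones. Transport kinesins carry vesicles, mitochondria, endosomes and other cargo, and T cells use them to move organelles and granules.

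The cells were OT-1 T cells from mouse lymph node, either Lck-/- or WT, with 4 extracts of each genotype. All were heterozygous for the OT-1 transgene (OT-1het), an antigen receptor that recognises SIINFEKL, a peptide of ovalbumin, and all were Rag-/-, a background in which cells cannot rearrange antigen receptors of their own. Every culture received 100 nM of the peptide for 24 h, then 100 µg/ml cycloheximide for 10 min to hold ribosomes on their mRNAs. Cytoplasmic lysates were separated on sucrose gradients of 10 to 50%. Pooled fractions 1 to 5, the light end of the gradient, made up the sub-polysomal RNA, and pooled fractions 6 to 10, whose mRNAs carry several ribosomes, the polysomal RNA. Each extract was measured on 2 Agilent arrays that set its polysomal against its sub-polysomal RNA, with the dyes swapped on the second array, giving 16 arrays on 2 slides. The series title adds the word OFF to the Lck-/- label, which no label explains. The labels call the extracts biological replicates without naming animals or cultures, so p-values measure the spread between these extracts.

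Lck, the kinase that phosphorylates the activated T cell receptor complex, had mean log2 intensities over both fractions of 14.18, 14.36, 14.04 and 14.14 in the Lck-/- extracts, against 15.08, 15.16, 14.72 and 15.17 in the WT extracts. Its level fell by 0.85 on the log2 scale (SE 0.14, adjusted p = 0.00314, limma), and the probe stayed well above background in both genotypes. The labels do not say which part of the gene is deleted, so this probe cannot tell how much functional Lck mRNA was left. All 8 T cell markers were detected in both genotypes, meaning well above background in both dyes on at least 6 of the 8 arrays of each, and summed to intensities of 119000 to 130000 in Lck-/- extracts and 104000 to 125000 in WT extracts. Of these 8, Thy1 rose and Cd5 fell. Markers of B cells, myeloid cells, stromal cells and natural killer cells were detected for 1 of 3, 2 of 6, 0 of 4 and 0 of 2 genes in each genotype, with Cd79a, Ms4a1, Lyz2, Cd14, Col1a1 and Ncr1 among those not detected. The B cell gene Cd79b and the myeloid genes Csf1r and Itgam were above background on 8 of 8 arrays of each genotype, with mean log2 intensities of 8.43, 9.91 and 9.79 in Lck-/- extracts and 8.27, 9.63 and 10.49 in WT extracts. The red cell gene Hba-a1 was above background on 7 of 8 Lck-/- arrays and 5 of 8 WT arrays. The part of such cells in the results was not tested. An array had between 12466 and 27553 probes whose spots passed the background flag in both dyes, with the highest number on the first array of Lck-/- replicate 1. In the polysomal channel of that array 50776 of 55681 probes passed the flag, against 22233 to 26643 on the other first arrays. The flag therefore set few probes apart there. The first and second arrays of WT replicates 1 and 2 did not match: deviations of the log2 ratios from the mean of their genotype and dye orientation correlated at -0.831 and -0.81 within these extracts, but at 0.867 and 0.938 when the second arrays were exchanged, against 0.457 to 0.844 in the other 6 extracts. Results are therefore also given without WT replicates 1 and 2 where that changes them.

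Sequences around the starts of the kinesin genes were read from RefSeq windows on GRCm38.p6 that run from 250 bases before to 50 bases after the start of transcription. Windows were held for 33 of the 43 genes. Kif13b, Kif19a, Kif20a, Kif21b, Kif4-ps, Kif5a, Kif5b, Kifc2, Kifc3 and Kifc5c-ps were not among them. Genes of the late cell cycle often carry a cell cycle homology region (CHR), here searched as the letters TTTGAA on both strands, and a box for the factor NF-Y, searched as CCAAT on both strands. The CHR letters were found in 11 of 13 mitotic kinesin genes (84.6%), 1 of 10 transport kinesin genes (10%) and 2 of 10 other kinesin genes (20%), against 20.2% of the 27025 genes with a window. The NF-Y letters were found in 9 of 13 mitotic genes (69.2%), 3 of 10 transport genes (30%) and 4 of 10 other genes (40%), against 41.1% of all genes. The letters GCGCGAA, 1 form of the E2F site, were found in 0 of 13, 1 of 10 and 0 of 10 genes of these classes, against 1.81% of all genes. No match of 1 motif overlapped a match of another in the sequences printed here.

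The CHR letters of the mitotic genes lay close to the start. A match began within 30 bases of the start, a distance chosen after the matches were seen, in 9 of 13 mitotic genes and 0 of 10 transport genes, against 3.66% of all genes. Kif14 and Kif2c had matches only farther upstream, 228 and 103 bases before the start, and Kif18a and Kif2b had none. Kifc1 and Kifc5b are near-identical genes and count as related sequences. The 120 bases before the start are shown for 3 mitotic kinesin genes with a CHR match just upstream and, for contrast, for Kif1b, the transport kinesin whose level rose. Capitals mark the CHR letters (TTTGAA or its reverse complement TTCAAA) and the NF-Y letters (CCAAT or its reverse complement ATTGG).
Kif11, chr19:37376262-37376381, plus strand: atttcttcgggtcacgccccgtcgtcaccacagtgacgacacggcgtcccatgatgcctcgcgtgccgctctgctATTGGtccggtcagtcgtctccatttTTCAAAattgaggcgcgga
Kif15, chr9:122950961-122951080, plus strand: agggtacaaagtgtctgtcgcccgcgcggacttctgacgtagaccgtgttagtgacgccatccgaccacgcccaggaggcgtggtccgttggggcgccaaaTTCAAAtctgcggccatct
Kif22, chr7:127042421-127042540, minus strand: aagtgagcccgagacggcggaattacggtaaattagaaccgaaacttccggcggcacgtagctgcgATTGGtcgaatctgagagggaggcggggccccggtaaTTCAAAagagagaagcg
Kif1b, chr4:149307734-149307853, minus strand: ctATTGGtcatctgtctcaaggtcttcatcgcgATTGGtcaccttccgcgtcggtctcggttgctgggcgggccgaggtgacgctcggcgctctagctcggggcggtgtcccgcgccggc
In Kif11 the CHR letters begin 19 bases and the NF-Y letters 45 bases before the start. Kif22 has the same arrangement at 17 and 54 bases, and Kif15 has CHR letters at 19 bases with no NF-Y letters in the window. Kif1b has NF-Y letters 118 and 87 bases before the start and no CHR letters. A match of letters is not a binding site, and none was tested here.

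**Figure D1:**
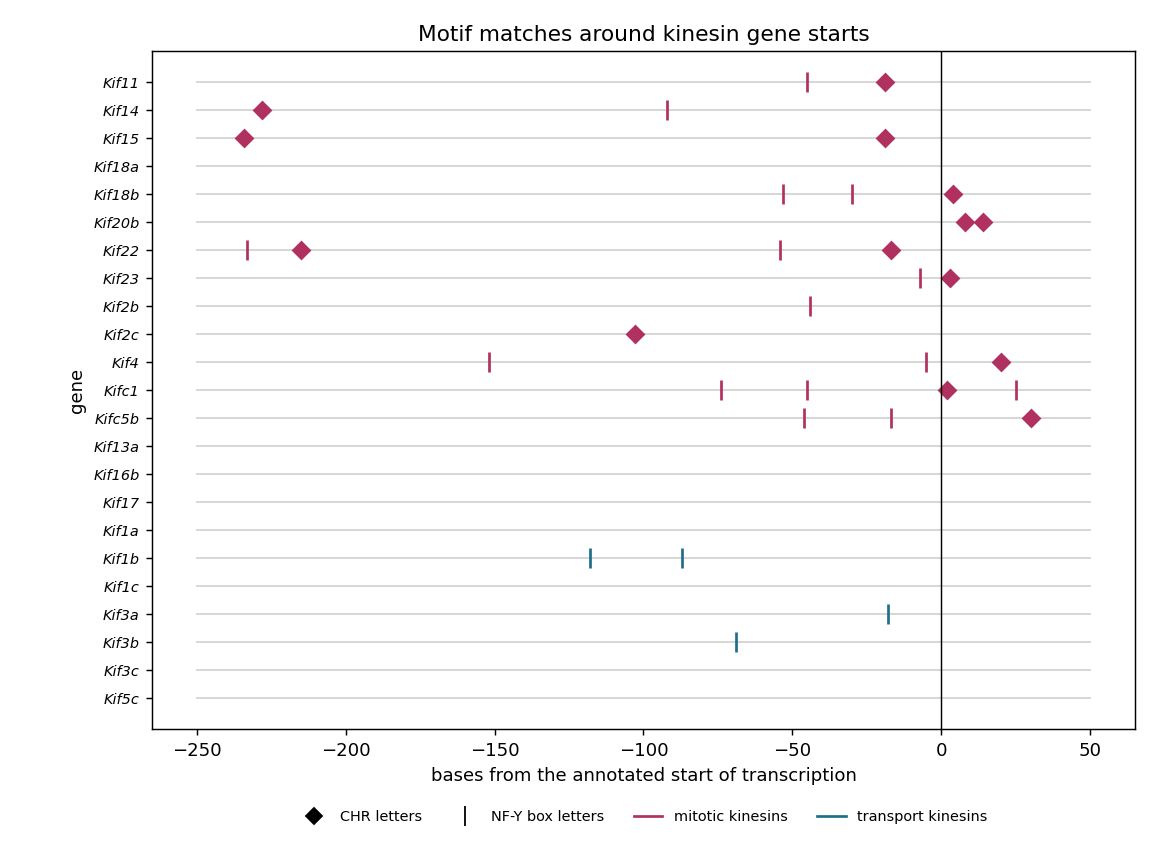
Positions of CHR letters (diamonds) and NF-Y letters (bars) in bases from the annotated start of transcription, in the first window of each mitotic (red) and transport (blue) kinesin gene. A CHR match begins within 30 bases of the start in 9 of the 13 mitotic genes and in 0 of the 10 transport genes. Kif1a, the transport gene with a CHR match, has it only in a second window that is not drawn.

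Kinesin mRNA levels were compared first, as the log2 intensity averaged over both fractions, Lck-/- minus WT. Most of the mitotic kinesins that could be measured were lower in Lck-/- cells, and of the transport kinesins measured in both genotypes only Kif1b passed the test, in the other direction. Levels were tested where a probe was well above background on at least 6 of the 8 arrays of at least 1 genotype. By that filter 16 of the 43 kinesins were tested, and 11 were detected in both genotypes. The other 5 were detected in 1 genotype alone, and for these a difference is partly built into the filter. Among the 11, 4 of 5 mitotic kinesins fell and 1 of 4 transport kinesins rose, where 10.2% of all genes detected in both genotypes fell and 10.6% rose. The median difference was -0.87 for the 5 mitotic kinesins and 0.00 for the 4 transport kinesins, against 0.05 for the 8265 genes. In pooled RNA, fewer cells in division and less kinesin mRNA per cell cannot be told apart.

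Kif11 (Eg5), which slides spindle microtubules apart so that the poles separate, was the clearest case. Its level was 7.95, 7.98, 7.98 and 8.06 in Lck-/- extracts, against 9.58, 9.32, 9.22 and 8.86 in WT extracts. All 4 Lck-/- extracts lay within a narrow band below every WT extract. The level fell by 1.25 on the log2 scale (SE 0.15, adjusted p = 0.000876, limma), or 2.38-fold. Its 60-base probe lies at chr19:37495755-37495814 on mm9, plus strand. Its spot passed the background flag in both dyes on 6 of 8 Lck-/- arrays and on 8 of 8 WT arrays, so the Lck-/- level sits near the lower end of what the array measured.

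Kif20a (MKLP2) and Kif20b bring proteins to the spindle midzone and act in the last step of division. Kif20a was at 8.94, 8.22, 8.14 and 8.20 in Lck-/- extracts and 8.88, 9.76, 10.29 and 9.31 in WT extracts. Only Lck-/- replicate 1 reached into the WT range, just above WT replicate 1. Kif20a fell by 1.19 (SE 0.28, adjusted p = 0.0150). With 1 dye orientation alone the call was lost, at an adjusted p of 0.0912 with polysomal RNA in Cy3, and also on slide 2 alone. Kif20b was at 8.83, 8.95, 9.19 and 9.04 in Lck-/- extracts and 9.90, 9.90, 10.22 and 9.49 in WT extracts. Its extracts did not overlap. Kif20b fell by 0.87 (SE 0.16, adjusted p = 0.00544).

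Kif22 (Kid), a motor that binds DNA and pushes chromosome arms away from the poles, was at 10.41, 9.76, 10.21 and 10.44 in Lck-/- extracts and 11.42, 11.28, 11.33 and 10.16 in WT extracts. WT replicate 4 lay inside the Lck-/- range and the other 3 WT extracts far above it. Kif22 fell by 0.85 (SE 0.27, adjusted p = 0.0441), a call that 15 of 23 other settings lost. Without WT replicates 1 and 2 its difference was -0.54 with an adjusted p of 0.285. Kifc1 (HSET), a minus-end motor that bundles spindle microtubules, was at 9.92, 9.76, 9.68 and 9.71 in Lck-/- extracts and 10.26, 10.08, 10.11 and 9.51 in WT extracts. The groups overlapped through WT replicate 4, and the difference of -0.22 (SE 0.16) did not pass the test (adjusted p = 0.350). Kifc1 and its near-identical copies Kifc5b and Kifc5c-ps may share signal, so its value is uncertain. WT replicate 4 was the lowest WT extract for 4 of these 5 genes, and WT replicate 1 for Kif20a. Both slides held arrays of both genotypes, and 3 of 5 mitotic kinesins fell on slide 1 alone, 2 of 5 on slide 2 alone and 4 of 5 with slide and dye as terms. Of all 9075 genes tested, 718, 814 and 1121 fell in these settings, against 1020 with both slides and no such terms. The median difference of the 5 mitotic kinesins was -0.85 on slide 1, -0.90 on slide 2 and -0.87 with these terms.

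4 more mitotic kinesins entered the test through the WT arrays alone. Kif23 (MKLP1), the motor of the centralspindlin complex at the midzone, was at 7.14, 7.34, 7.47 and 7.53 in Lck-/- extracts and 8.02, 8.21, 8.75 and 7.94 in WT extracts. Kif4, a chromosome-bound motor that sets the length of midzone microtubules, was at 7.40 to 7.78 in Lck-/- extracts and 7.99 to 8.83 in WT extracts. None of the extracts of these 2 genes overlapped. Kif15, which keeps spindle poles apart together with Kif11, was at 7.26, 7.26, 7.54 and 7.66 in Lck-/- extracts and 8.47, 8.29, 8.34 and 8.17 in WT extracts. Kif18b, which shortens astral microtubules, was at 6.84, 6.92, 6.84 and 6.55 in Lck-/- extracts and 7.77, 7.85, 8.06 and 7.65 in WT extracts. Their fitted differences ran from -1.04 to -0.86, and they stood well above background in both channels on 4, 3, 3 and 0 of 8 Lck-/- arrays, in the order named, against 7, 6, 7 and 6 of 8 WT arrays. The Lck-/- levels of these 4 genes are therefore close to background, and their differences were chosen in part by the filter.

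**Figure D2:**
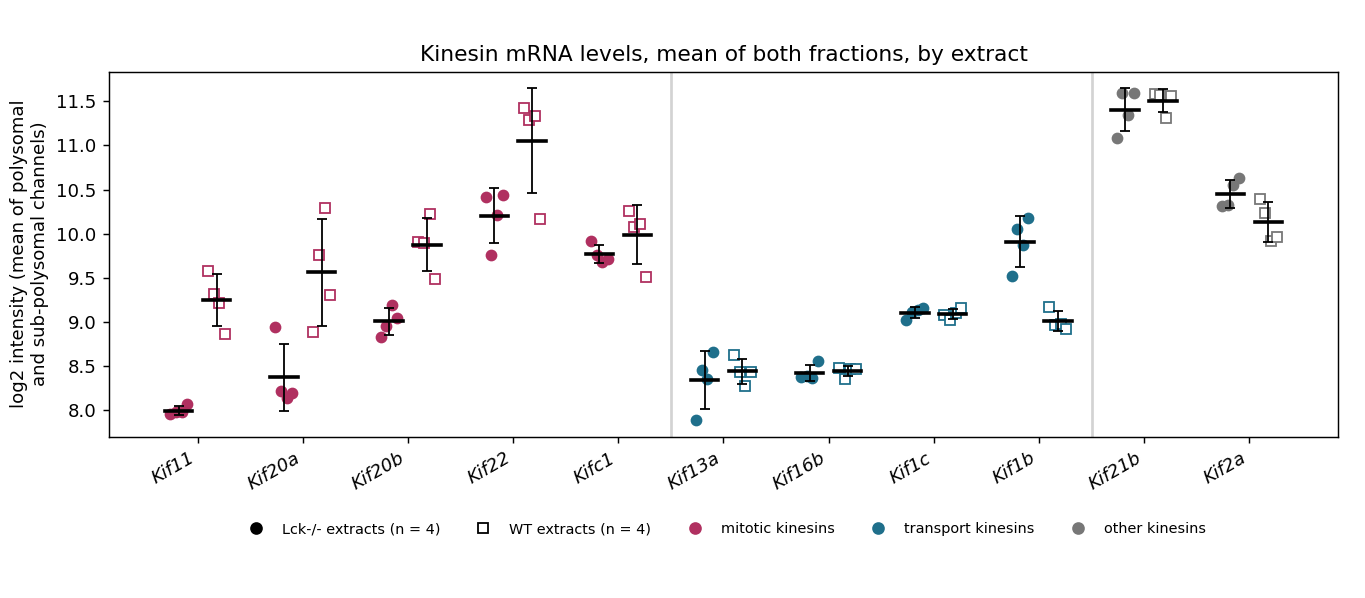
Log2 intensity, mean of the polysomal and sub-polysomal channels, of the 11 kinesins detected in both genotypes. Each circle is an Lck-/- extract and each square a WT extract (n = 4 each), with the mean and SD in black. Kif11 lies between 7.95 and 8.06 in Lck-/- extracts and between 8.86 and 9.58 in WT extracts, and Kif1b is the only gene drawn with all Lck-/- extracts above all WT extracts. Heights of different genes come from different probes and cannot be compared.

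Among the transport kinesins, Kif1b, a motor of mitochondria and synaptic vesicle precursors in nerve cells, stood in the other direction. It was at 9.52, 10.06, 9.87 and 10.18 in Lck-/- extracts and 9.17, 8.96, 8.98 and 8.92 in WT extracts. Every Lck-/- extract was above every WT extract, and Kif1b rose by 0.90 (SE 0.15, adjusted p = 0.00390), or 1.87-fold. The call held in all 23 other settings run for it, with adjusted p from 0.000623 to 0.0289. A second Kif1b probe, annotated to another transcript, differed by 0.48 in the same direction, but was above background in both channels on only 5 Lck-/- and 2 WT arrays and was not tested. The probe used lies at chr4:148550431-148550490 on mm9, minus strand. It shares a stretch of at least 16 bases with 1 probe of another gene on the same strand and 1 on the opposite strand (Col12a1 and Wbp5). The part of this in its signal was not tested.

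The other 3 transport kinesins detected in both genotypes showed small differences that did not pass the test. Kif1c, which carries vesicles and adhesion proteins, was at 9.02 to 9.15 in Lck-/- extracts and 9.02 to 9.15 in WT extracts, a difference of 0.02 (SE 0.11, adjusted p = 0.928). Kif16b, a motor of early endosomes, was at 8.37 to 8.56 in Lck-/- extracts and 8.36 to 8.48 in WT extracts, a difference of -0.02 (SE 0.11). Kif13a, which moves recycling endosomes, differed by -0.10 (SE 0.17). Kif3b, a subunit of kinesin-2, was detected in Lck-/- cells alone by the filter and differed by 0.36 (SE 0.21, adjusted p = 0.228). Kif5b, the ubiquitous heavy chain of conventional kinesin, was above background in both channels on only 5 Lck-/- and 4 WT arrays, so its mean level and ratio were not tested.

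Of the other kinesins, Kif2a and Kif21b were detected in both genotypes. Kif2a, which takes microtubule ends apart and works both in mitosis and in resting cells, differed by 0.32 (SE 0.15, adjusted p = 0.132), with 10.31 to 10.63 in Lck-/- extracts and 9.92 to 10.40 in WT extracts. Kif21b, which limits microtubule growth and has a known role at the T cell synapse, differed by -0.10 (SE 0.15, adjusted p = 0.646). Over all 3 classes, the extracts of the genotypes did not overlap for 3 of the 11 kinesins, Kif11, Kif20b and Kif1b, against 26.2% of all genes detected in both genotypes.

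Each fraction was then compared by itself, which brings in kinesins seen in 1 channel alone. In the polysomal fraction 24 kinesins were tested and 19 were detected in both genotypes. Of these 19, 6 of 8 mitotic kinesins fell and 1 of 8 transport kinesins rose, where 8.54% of all genes detected in both genotypes fell and 6.31% rose. In the sub-polysomal fraction 18 were tested and 12 were detected in both genotypes. There 4 of 5 mitotic kinesins fell and 1 of 4 transport kinesins rose, where 11.1% of all genes fell and 9.81% rose. The median difference of the mitotic kinesins was -0.93 in the polysomal and -0.86 in the sub-polysomal fraction, against 0.02 and 0.05 for all genes detected in both genotypes. The transport kinesins had medians of -0.02 and 0.02. The fractions come from the same extracts and arrays and are not independent of each other or of the mean level. Kif15, Kif4 and Kif24 passed the polysomal filter on 6 of 8 Lck-/- arrays, the fewest allowed, as Kif11 did in both dyes. Whether the first array of Lck-/- replicate 1, with its many flagged probes, was among these was not examined.

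In the polysomal fraction Kif11 was at 7.81, 8.20, 8.28 and 8.26 in Lck-/- extracts and 9.67, 9.43, 9.50 and 9.01 in WT extracts, and fell by 1.27 (SE 0.18, adjusted p = 0.00246). Kif20a showed the largest fitted fall among the kinesins tested there, by 1.36 (SE 0.31, adjusted p = 0.0152), with 8.84, 7.93, 8.12 and 8.03 in Lck-/- extracts and 8.94, 9.81, 10.43 and 9.20 in WT extracts. Its extracts did not overlap, by a small margin between the highest Lck-/- and the lowest WT extract. Kif4 fell by 1.11 (SE 0.20, adjusted p = 0.00503), with 7.78, 7.22, 7.46 and 7.56 in Lck-/- extracts and 8.68, 8.57, 9.02 and 8.21 in WT extracts. Kif23 was at 7.11, 7.43, 7.74 and 7.78 in Lck-/- extracts and 8.17, 8.44, 9.08 and 8.09 in WT extracts. Kif23 fell by 0.93 (SE 0.23, adjusted p = 0.0236); among the level comparisons, only this fraction had Kif23 above background in both genotypes. Kif15 fell by 0.90 (SE 0.20) and Kif20b by 0.92 (SE 0.21). Kif22 had a difference of -0.83 that did not pass (adjusted p = 0.0681), and Kifc1 one of -0.30 (adjusted p = 0.239).

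Kif18a, Kif18b and Kif2c passed the polysomal filter through the WT arrays alone. Kif18a and Kif18b dampen the movement of chromosomes and microtubule ends, and Kif2c (MCAK) corrects faulty attachments of chromosomes. Kif18a was at 6.93, 7.10, 7.13 and 6.91 in Lck-/- extracts and 8.11, 7.85, 8.26 and 7.62 in WT extracts. Kif18b was at 6.76, 6.89, 7.01 and 6.65 in Lck-/- extracts and 7.77, 7.88, 8.05 and 7.69 in WT extracts. Kif2c was at 6.75 to 7.38 in Lck-/- extracts and 7.49 to 8.58 in WT extracts. In each of these 3 genes every WT extract was above every Lck-/- extract. The fitted differences, -0.94 for Kif18a, -1.02 for Kif18b and -0.88 for Kif2c, are given as values, since the filter chose these genes for being high in WT.

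In the sub-polysomal fraction Kif11 was at 8.09, 7.76, 7.67 and 7.87 in Lck-/- extracts and 9.49, 9.21, 8.93 and 8.71 in WT extracts, and fell by 1.24 (SE 0.18, adjusted p = 0.00230). Its extracts did not overlap there either. Kif15, Kif18b, Kif23 and Kif4 passed the sub-polysomal filter through the WT arrays alone. Kif15 was at 7.42, 7.32, 7.43 and 7.59 in Lck-/- extracts and 8.44, 8.18, 8.18 and 8.44 in WT extracts. Kif18b was at 6.93, 6.95, 6.68 and 6.44 in Lck-/- extracts and 7.77, 7.82, 8.06 and 7.61 in WT extracts. Kif23 was at 7.18, 7.26, 7.21 and 7.27 in Lck-/- extracts and 7.86, 7.98, 8.42 and 7.79 in WT extracts. Kif4 was at 7.55 to 7.77 in Lck-/- extracts and 7.78 to 8.63 in WT extracts, almost touching. The filter took in these 4 genes for being high in WT, so their separation is partly built in, and the values are given as a description.

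In the polysomal fraction Kif1b was at 9.75, 10.58, 10.37 and 10.82 in Lck-/- extracts and 9.50, 9.42, 9.34 and 9.29 in WT extracts, and rose by 0.99 (SE 0.21, adjusted p = 0.0117). In the sub-polysomal fraction it was at 9.29, 9.53, 9.37 and 9.55 in Lck-/- extracts and 8.84, 8.50, 8.62 and 8.55 in WT extracts, and rose by 0.81 (SE 0.13, adjusted p = 0.00332). Its rise was thus present in both fractions. Kif5b could be measured in the polysomal fraction, at 7.18, 8.30, 7.87 and 8.21 in Lck-/- extracts and 8.07, 7.86, 8.14 and 8.37 in WT extracts, with a difference of -0.22 (SE 0.24, adjusted p = 0.557). Lck-/- replicate 1 was the lowest extract for Kif5b, and also for the kinesin-2 subunit Kif3a, at 7.35 against 8.68 to 8.80 in the other Lck-/- extracts. Kif3a, Kif3b and Kif3c, which together form kinesin-2 motors of cilia and of cytoplasmic transport, differed by -0.15, 0.44 and 0.27 with adjusted p of 0.758, 0.255 and 0.306. Without Lck-/- replicate 1, Kif3b passed the test as well, so that 2 of 8 transport kinesins rose. In that setting 1352 of all 10294 genes tested in the polysomal fraction rose, against 615 with all extracts. In the polysomal fraction the extracts of the genotypes did not overlap for 8 of the 19 kinesins, against 22.5% of all genes, and in the sub-polysomal fraction for 3 of 12, against 27.2%.

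Of the other kinesins Kif24, which remodels the microtubules of centrioles and restrains cilia, was at 7.01, 7.54, 7.19 and 7.39 in the polysomal fraction of Lck-/- extracts and 7.74, 7.59, 7.71 and 7.82 in that of WT extracts. Its extracts did not overlap, but the difference of -0.43 (SE 0.16) did not pass the test (adjusted p = 0.0817). The counts in both fractions depended on the setting. Without WT replicates 1 and 2, 1 of 8 mitotic kinesins fell in the polysomal fraction (Kif11) and 0 of 8 transport kinesins rose. In that setting the calls over all 10294 genes tested in the polysomal fraction also dropped, to 202 that fell and 44 that rose, against 951 and 615 with all extracts. In the sub-polysomal fraction 2 of 5 mitotic kinesins fell without Lck-/- replicate 3, Lck-/- replicate 4, WT replicate 2 or WT replicate 3. Over all 9705 genes tested in that fraction 650, 677, 771 and 740 fell, in that order, against 1045 with all extracts.

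**Figure D3:**
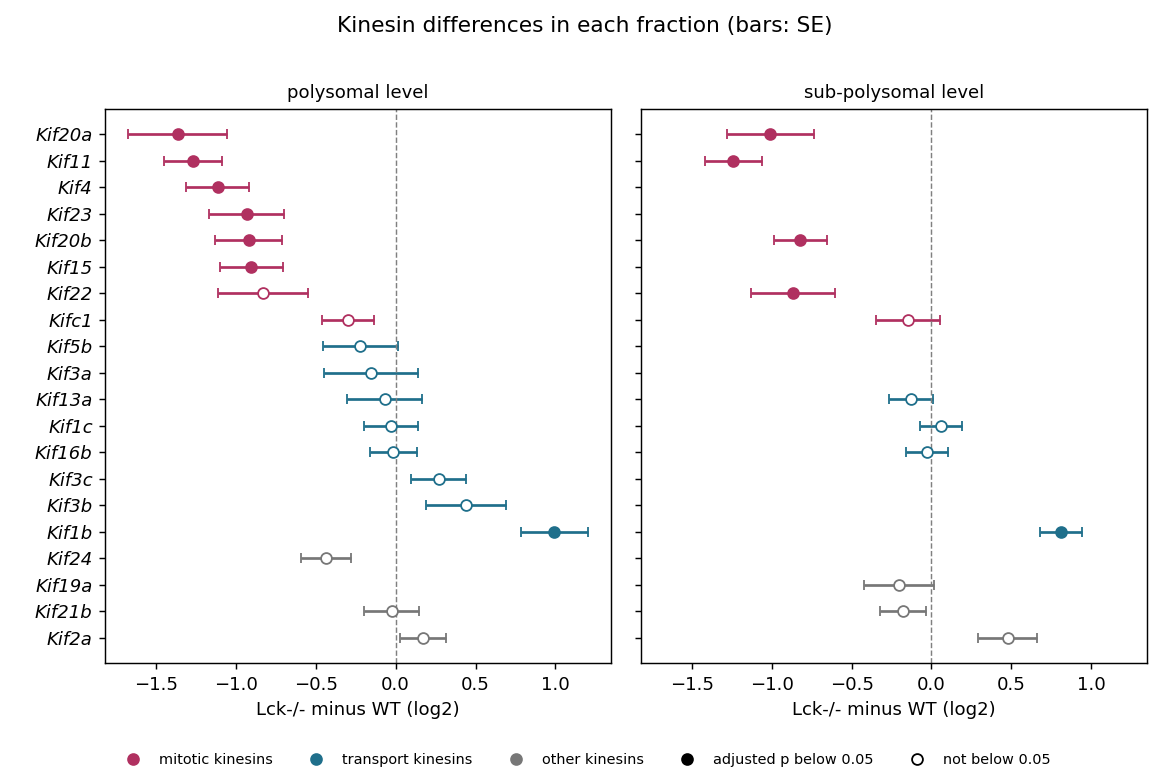
Difference of the log2 level, Lck-/- minus WT, in the polysomal (left) and sub-polysomal fraction (right), for kinesins detected in both genotypes in that fraction, with bars for the SE. Filled points passed an adjusted p of 0.05. In both panels the mitotic kinesins lie left of 0, by 1.36 for Kif20a in the polysomal fraction at the far end, and Kif1b is the only filled point right of 0.

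The ratio of polysomal over sub-polysomal RNA says how an mRNA was divided between the fractions. Loess normalization brings the bulk of mRNAs on an array to a ratio near 0, so a ratio is relative to the other mRNAs of its extract. The mean ratios of the 4 transport kinesins that could be tested lay between 0.52 and 1.22 over both genotypes, and those of the 5 mitotic kinesins between -0.39 and 0.46. The classes were not tested against each other. The ratio of 4 of 4 transport kinesins was above 0 by the test in Lck-/- cells, where 26.9% of all 8265 genes were, and in WT cells, where 33.5% were. Of the 5 mitotic kinesins, 2 were above 0 (Kif22 and Kifc1) and 2 below (Kif20a and Kif20b) in Lck-/- cells, where 29.2% of all genes were below 0, and 2 above (again Kif22 and Kifc1) and 0 below in WT cells, where 28.8% were below.

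Kif1c had the highest mean ratio of the 11 kinesins tested, at 0.49, 1.35, 1.12 and 1.56 in Lck-/- extracts and 1.23, 1.28, 0.98 and 1.40 in WT extracts. Other Kif1c probes averaged 0.08 and 0.52 in Lck-/- and 0.55 and 0.28 in WT extracts. They passed the background flag in both dyes on 0 Lck-/- arrays and on 0 and 1 WT arrays. Kif1b was at 0.47, 1.05, 1.00 and 1.27 in Lck-/- extracts and 0.66, 0.93, 0.72 and 0.74 in WT extracts. Kif16b was at 0.47, 1.07, 0.81 and 0.84 in Lck-/- extracts and 0.58, 0.88, 0.63 and 1.04 in WT extracts. The genotypes overlapped for each of these 3 genes. Kif13a was at -0.06, 0.88, 0.64 and 0.84 in Lck-/- extracts and 0.33, 0.60, 0.49 and 0.64 in WT extracts. Lck-/- replicate 1 was the lowest Lck-/- extract for each of these 4 genes, and in Kif13a it was slightly below 0. The median ratio of all 8265 genes was also lowest there, at -0.14 against 0.01 to 0.04 in the other Lck-/- extracts. By mean ratio, Kif1c was at the 98.5th percentile of all genes in Lck-/- cells and Kif13a at the 88.4th. Another 5 transport kinesins passed the polysomal filter but were not tested in the ratio, because their sub-polysomal signal was above background on too few arrays. Their measured ratios varied: Kif3a averaged 0.81 in Lck-/- and 0.93 in WT extracts, Kif5b 0.41 in Lck-/- and 0.48 in WT extracts, and Kif3b 0.32 in Lck-/- and 0.16 in WT extracts. Kif5c averaged 0.11 in Lck-/- and 0.51 in WT extracts, and Kif3c 0.17 in Lck-/- and -0.46 in WT extracts. The WT mean of Kif3c rests on WT replicate 2, with -0.10, -1.70, -0.05 and 0.00 in the WT extracts. Kif5c was at 1.07, 0.05, 0.44 and 0.48 in WT extracts, highest in WT replicate 1. The arrays of both these replicates did not match.

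Among the mitotic kinesins, Kif11 was at -0.29, 0.44, 0.61 and 0.39 in Lck-/- extracts and 0.17, 0.22, 0.57 and 0.30 in WT extracts. Kif20a was at -0.20, -0.59, -0.03 and -0.33 in Lck-/- extracts and 0.12, 0.11, 0.27 and -0.22 in WT extracts. Kif20a was thus below 0 in 4 of 4 Lck-/- extracts and in 1 of 4 WT extracts. Kif20b was at -0.80, -0.76, 0.05 and -0.02 in Lck-/- extracts and -0.14, -0.24, -0.44 and -0.33 in WT extracts, with the Lck-/- extracts split into a low and a middle pair. Kifc1 was at -0.06, 0.59, 0.43 and 0.29 in Lck-/- extracts and 0.28, 0.40, 0.56 and 0.62 in WT extracts. Kif22 averaged 0.27 ± 0.10 in Lck-/- extracts and 0.23 ± 0.12 in WT extracts (SD, n = 4 each). Other mitotic kinesins of the polysomal fraction were not tested in the ratio, as both dyes passed on too few Lck-/- arrays. For Kif18a, Kif2c and Kifc5b both dyes passed on too few WT arrays as well (4, 4 and 2 of 8). In Lck-/- and WT extracts Kif23 averaged 0.28 and 0.43, Kif2c 0.20 and 0.55, Kif4 -0.12 and 0.37, and Kif15 -0.01 and 0.01. Kif18a averaged -0.06 and 0.22, Kif18b 0.08 and 0.03, and Kifc5b -0.16 and 0.03. The extracts of Kif4 did not overlap, which also held for 14.5% of all genes detected in both genotypes. Kif4 passed the background flag in both dyes on only 3 of 8 Lck-/- arrays, so its Lck-/- ratio is close to background. Kif2c in WT lay within the range of the tested transport means, but passed in both dyes on only 4 of 8 WT arrays.

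The transport median was above the mitotic median by 0.67, 0.82, 0.52 and 0.90 in the Lck-/- extracts and by 0.45, 0.74, 0.26 and 0.75 in the WT extracts. In 6 of 8 extracts all 4 transport kinesins were above all 5 mitotic ones, the exceptions being Lck-/- replicate 1 and WT replicate 3. The transport median stayed above the mitotic one by 0.39 to 0.80 in Lck-/- cells over the 14 other settings that kept all 9 genes and moved the value, and by 0.25 to 0.84 in WT cells over 15 such settings. The classes hold few genes, each read by a single probe, so this is a description of these 9 mRNAs.

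Kif2a had the lowest mean ratio of the 11 kinesins tested, at -0.61, -0.48, -0.89 and -0.93 in Lck-/- extracts and -0.58, -0.50, -0.15 and -0.47 in WT extracts. Kif21b was at 0.24, 0.45, 0.22 and 0.19 in Lck-/- extracts and 0.19, -0.02, 0.05 and 0.28 in WT extracts. The ratio of Kif2a depends on the probe. The brightest probe averaged -0.73 in Lck-/- and -0.42 in WT extracts, another 0.44 in Lck-/- and 0.49 in WT extracts, and the last -0.10 in Lck-/- and 0.06 in WT extracts. The probe at 0.44 and 0.49 was above background in both channels on only 4 Lck-/- and 2 WT arrays, against 8 and 7 for the last. These 3 probes carry the same transcript annotation, so the division of Kif2a between the fractions is uncertain.

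**Figure D4:**
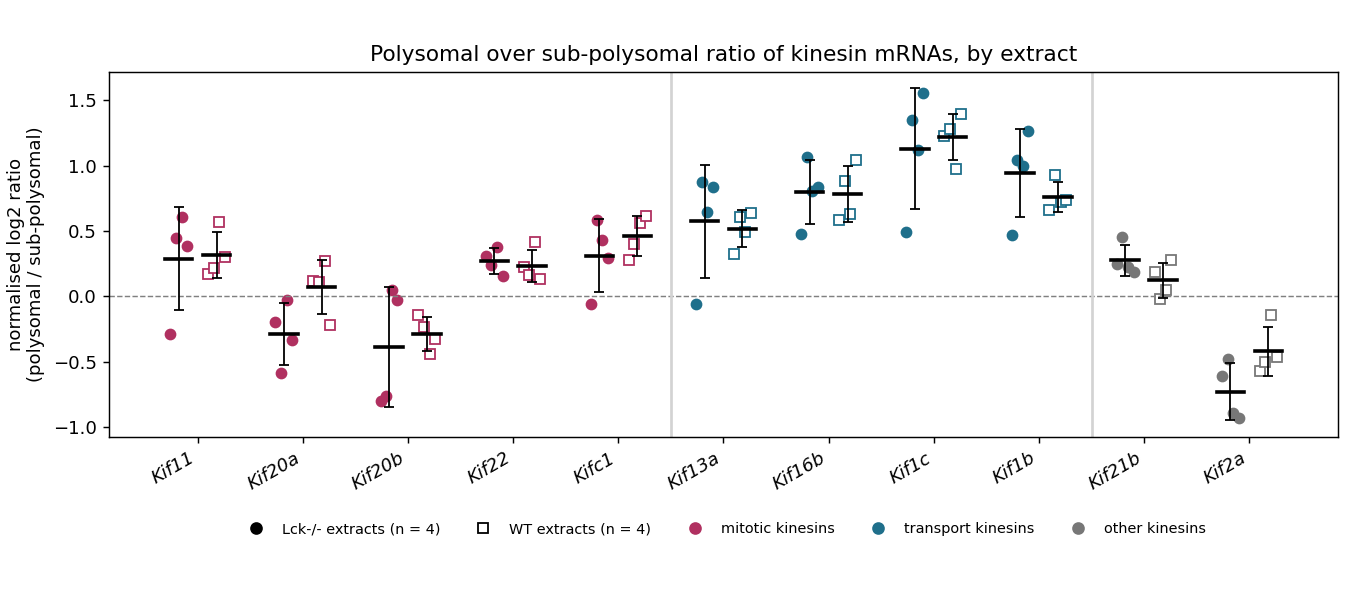
Normalised log2 ratio of polysomal over sub-polysomal RNA of the 11 kinesins tested. Each circle is an Lck-/- extract and each square a WT extract (n = 4 each), with the mean and SD in black, and the dashed line marks the typical mRNA. The mean ratios of the 4 transport kinesins lie between 0.52 and 1.22 and those of the 5 mitotic kinesins between -0.39 and 0.46.

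Between the genotypes, the ratio of 0 of 11 kinesins passed the test (limma), where 2.82% of all genes rose and 1.05% fell. The median difference was -0.10 for the 5 mitotic and 0.04 for the 4 transport kinesins, against -0.04 for all genes. Kif20a had the smallest p, with a difference of -0.36 (SE 0.16, unadjusted p = 0.0427, adjusted p = 0.225), and was the only 1 of the 11 with an unadjusted p below 0.05. Kif2a differed by -0.31 (SE 0.15), Kif1b by 0.18 (SE 0.17), Kif21b by 0.15 (SE 0.12) and Kifc1 by -0.15 (SE 0.16), with adjusted p from 0.266 to 0.618. Kif11, whose level fell most, had a ratio difference of -0.03 (SE 0.19, adjusted p = 0.956). The extracts of the genotypes overlapped for all 11 kinesins, whereas 14.5% of all genes had no overlap.

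This result rests on setting the typical mRNA to 0. Before normalization the median log2 ratio of an extract was 0.21, 0.39, 0.78 and 0.69 in Lck-/- extracts and 1.41, 1.18, 1.73 and 1.04 in WT extracts, from equal volumes and not equal masses of RNA. Without normalization the median difference of all genes was -0.78, and that of the mitotic kinesins -0.81, and 5 of 5 mitotic kinesins fell, as did 5940 of all 8265 genes. The transport median was -0.39 in that setting, above the median of all genes. In the authors' deposited table, where the median difference of all genes is -1.15, the mean ratio of Kif11 was 1.09 in Lck-/- columns and 2.05 in WT columns, and that of Kif1b was 1.70 in Lck-/- columns and 2.56 in WT columns. Whether the share of all mRNA on polysomes differed between the genotypes was not tested.

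**Figure D5:**
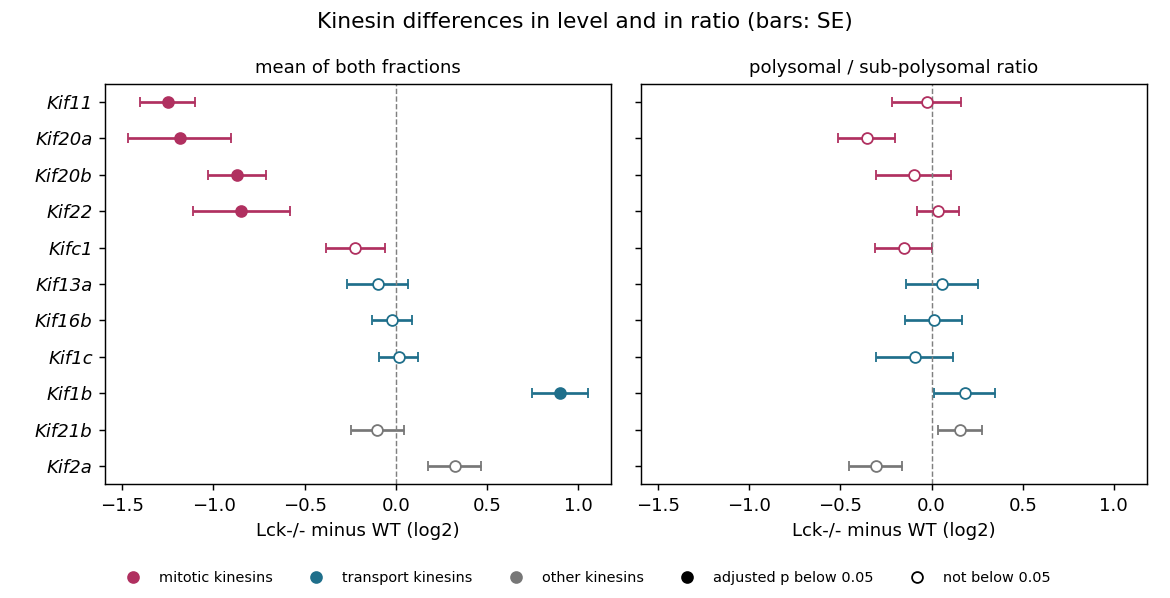
Differences between the genotypes, Lck-/- minus WT in log2, in mean level (left) and in the ratio of polysomal over sub-polysomal RNA (right) for the 11 kinesins detected in both genotypes, with bars for the SE. Filled points passed an adjusted p of 0.05. In level Kif11 lies at -1.25 and Kif1b at 0.90, while in ratio every kinesin lies between -0.36 and 0.18.

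Partner genes of the kinesins were read from 3 lists. Of the spindle and midzone partners, 10 of 16 detected in both genotypes fell in mean level and 0 rose, where 10.2% of all genes fell and 10.6% rose. Their median was -0.74, against 0.05 for all genes. Hmmr, a spindle assembly factor, fell by 1.71 (SE 0.21, adjusted p = 0.000899), Prc1, which bundles midzone microtubules and recruits Kif4, by 1.13 (SE 0.18) and Ect2, which triggers the cleavage furrow, by 1.08 (SE 0.14). Nusap1, a spindle bundling protein, passed the filter in WT alone and had a difference of -2.09. In the ratio, 1 of 16 fell, where 1.05% of all genes did. It was Racgap1, the partner of Kif23 in centralspindlin, which fell by 0.56 (SE 0.12, adjusted p = 0.0270).

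Of the kinesin cargo adaptors, 2 of 12 detected in both genotypes rose in mean level (16.7%) and 0 fell, not far from the 10.6% and 10.2% of all genes, with a median of 0.11. Plekhm2, which links lysosomes to kinesin-1, rose by 0.58 (SE 0.15, adjusted p = 0.0208), and Madd, an adaptor of Kif1b vesicles in nerve cells, by 0.79 (SE 0.22, adjusted p = 0.0285). Madd was among the brightest genes given here, at 15.92 to 16.70 in Lck-/- extracts and 14.85 to 15.69 in WT extracts. Its spots were not examined for saturation. Trak1, a mitochondrial adaptor of kinesin-1 detected in 1 genotype, had a difference of -0.70. Of the dynein and dynactin genes, which form the motor that walks the other way along microtubules, 2 of 18 rose (11.1%) and 1 fell (5.56%), shares near those of all genes, with a median of 0.13. The dynein heavy chain Dync1h1 rose by 0.93 (SE 0.17, adjusted p = 0.00516), the dynein regulator Pafah1b1 (Lis1) rose by 0.56 (SE 0.12), and the dynactin subunit Dctn2 fell by 0.48 (SE 0.14, adjusted p = 0.0371). In the ratio, 0 of 12 cargo adaptors and 0 of 18 dynein and dynactin genes passed the test (limma), with 4 and 1 of them at an unadjusted p below 0.05. Over all 8265 genes 2.82% rose and 1.05% fell in the ratio, and 1722 had an unadjusted p below 0.05. The lowest unadjusted p among these belonged to Mapk8ip3, with a ratio difference of 0.62 (SE 0.18, adjusted p = 0.0873).

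A few kinesins were measured in 1 fraction alone. Kif19a, a motor of motile cilia, had a sub-polysomal difference of -0.20 (SE 0.22), and Kif5c, a neuronal heavy chain of conventional kinesin that passed the polysomal filter in WT alone, had a polysomal difference of -0.34 (SE 0.18). Kifc5b (polysomal -0.11) and Kifc5c-ps (sub-polysomal 0.80) each passed in 1 genotype alone and are uncertain as copies of Kifc1. The remaining 17 kinesins entered no test, because their probes were not well above background on enough arrays in either genotype. They include the mitotic kinesins Kif14 and Kif2b, the neuronal motors Kif1a and Kif5a, the ciliary motor Kif17, the Hedgehog regulator Kif7, and Kif26a, which was above background on 0 of 8 arrays of either genotype in either channel. For these genes the arrays show only that signal was at or near background in these cells.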

How the data were processed

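Polysomal and sub-polysomal RNA of 8 extracts was measured on 16 arrays. The deposited array files came from Agilent Feature Extraction 10.7.3.1, per the file headers, and hold mean spot and background intensity, processed intensity and yes-or-no flags of unit other for background, saturation and outliers. A further deposited table gives the authors' own log2 ratios (polysomal over sub-polysomal). The submitters' processing notes name limma without settings. Intensities were corrected with normexp (offset 50) and normalised by loess within arrays and Aquantile between them, using limma 3.58.1 (R 4.3.3; tables read by data.table, version 1.17.8). Controls and outlier spots had weight 0, and no kinesin spot was saturated. The 2 arrays of an extract were averaged, giving n = 4 per genotype, a number that limits the precision.

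To be tested in the ratio, a probe had to pass the background flag in both dyes on 6 or more of the 8 arrays per genotype; a level needed this in 1 genotype, for a single fraction in its own dye only. Linear models with empirical Bayes variances were fitted over all genes, with p-values adjusted by Benjamini and Hochberg (threshold 0.05), and tested on simulated data. SE is the moderated standard error. The ratio was also tested against 0. Kinesin members, classes and the other lists were chosen with earlier results of these data known. Every kinesin could be named; values per extract were given for Lck, Kif11, Kif20a, Kif23, Kif5b, Kif1b and for each comparison the 5 kinesins of smallest p, and each other list gave its 4 smallest p of the level and ratio difference. Alternatives changed the background correction, normalization, filter, probes, dyes, slides, extracts and source of the ratios. RefSeq promoter windows were matched by symbol for 33 of 43 members. A marker gene is not reported here.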

Additional observations from a re-analysis of the deposited data

Results flagged for a closer look

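Over the kinesins detected in both genotypes, 106 sets of 4 extracts were searched for an extract far from the other 3, by Dixon's test. It was passed 11 times, where chance gives about 1 in 20, and sets of related measures of a gene are not independent. WT replicate 4 was apart for Kif22 at a mean level of 10.16, a polysomal level of 10.23 and a sub-polysomal level of 10.10, where the nearest WT extracts were at 11.28, 11.37 and 11.13. The same extract was apart in the polysomal level of Kif15, at 7.89, and of Kif16b, at 8.99. Lck-/- replicate 1 was apart for Kif20a, at a mean level of 8.94 with the next at 8.22. It was also apart in the polysomal level of Kif3a, at 7.35, and of Kif11, at 7.81. The mean level of Kif16b was apart in Lck-/- replicate 4, at 8.56, and in WT replicate 2, at 8.36, and that of Kif21b in WT replicate 3, at 11.31. WT replicate 4 and Lck-/- replicate 1 thus account for 8 of the 11.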

How the results depend on the processing

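Among the settings run, no kinesin that passed in level passed in the other direction under another. In mean level, 2 of 5 mitotic kinesins fell with polysomal RNA in Cy3 only and on slide 2 alone. With single extracts left out 3 to 4 fell, and the mitotic median ran from -1.14 to -0.76. Of all 9075 genes tested, 1020 fell by the main processing, 571 with Cy3 only and 814 on slide 2 alone. With single extracts left out, 658 to 1098 did. In the polysomal fraction 3 mitotic kinesins fell when detection on all arrays was asked (5 tested), with Cy5 only and on slide 1 alone, 2 with Cy3 only and 1 without WT replicates 1 and 2. In the order named, 676 of all 8261 genes fell in these settings, then 115, 117, 232 and 202 of all 10294 (951 by the main processing). In the same fraction 0 transport kinesins rose under median centring, without normalization, with Cy5 only, on slide 1 alone and without WT replicates 1 and 2, and 1 to 2 when single extracts were left out. Of all 10294 genes 51, 59, 25, 32 and 44 rose in these settings, and 164 to 1352 with single extracts left out. By the main processing 615 rose. In the sub-polysomal fraction 1 mitotic kinesin fell under median centring and without normalization, 2 with Cy3 only and on slide 2 alone, and 2 to 4 when single extracts were left out. Of all 9705 genes 326, 312, 332 and 198 fell in these settings, and 650 to 1131 with single extracts left out. By the main processing 1045 fell. The median difference of all genes was 0.37 under median centring and 0.35 without normalization, against 0.05 by the main processing. The replicate numbers did not pair the samples (correlations of same-numbered extracts -0.24 to 0.45). With the replicate number as a block, 3 mitotic kinesins fell in mean level, 6 in the polysomal and 2 in the sub-polysomal fraction. Over all genes tested 859 of 9075, 842 of 10294 and 711 of 9705 fell with this block.

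The ratio depended on scaling. With median centring, with no normalization and with the ratios of the authors, 4, 5 and 5 mitotic kinesins fell (4656 and 5940 of all 8265 genes, and 7427 of 8253), with medians of -0.81, -0.81 and -1.15 (transport -0.38, -0.39 and -0.82); slide 2 alone gave 0.22 for the mitotic median, and the authors' ratios with centred columns 0.36 for the transport median. Kif13a (-0.66), Kif16b (-0.79), Kif1b (-0.86), Kif21b (-1.11) and Kif22 (-1.14) turned to a passed fall in the authors' ratios, as did Kif21b (-0.75, -0.75) and Kif22 (-0.81, -0.81) under median centring and without normalization. The median of all genes was -0.78, -0.78 and -1.15, close to the mitotic medians and below the transport ones. The mitotic median in Lck-/- cells was 0.54, 0.81 and 0.93 in these settings, in their order, and 1.26, 1.54 and 2.05 in WT cells; the transport median was 1.21, 1.49 and 1.66 in Lck-/- cells and 1.59, 1.87 and 2.49 in WT cells. In Lck-/- cells the mitotic median was -0.0090 with detection on all arrays (4 genes) and -0.068 with Cy3 only. In WT cells it was 0.47 with Cy5 only, -0.0040 with Cy3 only, 0.46 on slide 1 and 0.0079 on slide 2. The transport median of the mean level difference was 0.90 with detection on all arrays, which left Kif1b alone, and 0.084 with Cy5 only. Except where fewer genes or extracts were left, the cause was not tested. For differences that had not passed, 935 values were recomputed, and 99 of them changed sign without passing. Signal near background limits Kif5b, Kif15, Kif18b, Kif23 and Kif4 in Lck-/- cells.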
